A study of Mus musculus with 6 samples.

Results

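Growth and angiogenic factors are a set of 10 genes, Vegfa, Vegfb, Hbegf, Pdgfa, Pdgfb, Tgfb1, Igf1, Gdf15, Inhba and Thbs1, picked by name from the 54532 genes of a table of transcript levels in stimulated mouse macrophages. SAHH-KO macrophages (3 libraries), in which S-adenosylhomocysteine hydrolase (gene Ahcy) was targeted, were set against control macrophages (3 libraries). Per the labels, all were primary peritoneal cells drawn out by thioglycollate, taken after 4 days, kept after adhering for 6 h, and given interferon-γ (2 ng/mL) with lipopolysaccharide (10 ng/mL) for 8 h, so both groups carry the stimulus and every value describes stimulated cells. Titles name the control cells shControl while their genotype entry reads WT, and the targeted cells are SAHH-KO in titles but SAHH knockdown by genotype. No construct, strain, age or number of animals is given. Whether libraries of one group represent different mice or culture dishes is also unstated, so p-values here reflect variation among these libraries, which may be technical.

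These proteins are the secreted signals by which macrophages act on vessels and connective tissue. VEGF-A and VEGF-B are dimers that bind receptor tyrosine kinases on endothelium, the PDGF chains pair to recruit pericytes and smooth muscle cells, HB-EGF is shed from the cell surface to activate the EGF receptor, and IGF-1 acts through its own receptor kinase. TGF-β1, activin A (a dimer of the Inhba product) and GDF15 belong to one ligand superfamily with serine/threonine kinase receptors or, for GDF15, a receptor in the hindbrain, while thrombospondin-1 is a matrix glycoprotein that restrains angiogenesis and can release TGF-β1 from its latent complex. In atherosclerotic plaques, which the title of the series names, several of these factors come from macrophages.

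The set divided in 2 directions. Vegfa and Pdgfb rose in SAHH-KO, Vegfb and Hbegf fell, and Tgfb1, Igf1 and Pdgfa did not pass the test. Gdf15 and Thbs1 lay under the level needed for testing, Gdf15 with more reads in SAHH-KO and Thbs1 with none there, and Inhba had no read in any library. Of the 7 members tested, 2 were higher and 2 lower, where 26.4% and 26.8% of all 10362 tested genes were, and 53.3% in either direction. The 4 calls among 7 are therefore a share near that of all genes, and Hbegf passed the filter through its control libraries alone, so the count says nothing particular about the set. Vegfa and Hbegf changed at least 2-fold on the test's scale, which 10.6% of all tested genes did. With TPM scaling, which moved the median of all tested genes to -0.16 on the log2 scale, 2006 of all genes were higher and 3894 lower, in place of 2736 and 2782, and the members' calls stood as they were. Values of SAHH-KO and control libraries did not overlap for 4 of the 7 tested members, against 62.3% of all tested genes. Counts of called genes in the related lists below are to be read beside the called shares of all tested genes.

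Values are FPKM, read fragments scaled by gene length and library size, which allows levels of different genes to be compared. Testing, with limma, took in genes that reached 1 FPKM in 3 or more of the 6 libraries and was done on log2(FPKM + 1), and an adjusted p under 0.05 (Benjamini-Hochberg over all tested genes) was the threshold. Fold changes on that scale understate the change of low genes, so ratios of group means in FPKM are given too. SAHH-KO libraries held 15856261 to 17748745 reads assigned to genes and control libraries 15540442 to 16676534. Ahcy itself stood at 5.51, 5.50 and 6.23 FPKM in SAHH-KO, against 25.8, 22.6 and 24.4 FPKM in control (limma adjusted p = 1.44e-06). Of 10 macrophage markers, 9 averaged at least 1 FPKM in one group or both, and Mertk, a receptor for apoptotic cells, had 2 reads in all. The summed level of the 10 was 9598 to 10884 FPKM in SAHH-KO and 8544 to 8833 FPKM in control. Most of it was Lyz2 (means 6616 and 5653 FPKM), which was not called (adjusted p = 0.0670). In SAHH-KO 6 were called higher and none lower, Fcgr1 (4.79-fold) and Adgre1 (2.09-fold) the most. Csf1r lay lower in every SAHH-KO library (means 91.0 and 107 FPKM) and did not pass (adjusted p = 0.0568). The part of these marker differences in the members' values was not tested. Lists for endothelium, for eosinophils and mast cells, and for B, T and NK cells held no gene that averaged at least 1 FPKM.

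The promoters of Vegfa, Vegfb and Gdf15 are shown because Vegfa and Vegfb encode sister ligands that moved in opposite directions and Gdf15 was the member with the largest relative gain in reads. Each runs from 250 bases before to 50 bases after an annotated start, 5′ to 3′, from RefSeq on GRCm38.p6, and capitals mark the GC box GGGCGG on either strand, the element bound by SP1. All 3 lie on the minus strand, at chr17:46032328-46032627 for Vegfa, chr19:6987602-6987901 for Vegfb and chr8:70632407-70632706 for Gdf15.
Vegfa: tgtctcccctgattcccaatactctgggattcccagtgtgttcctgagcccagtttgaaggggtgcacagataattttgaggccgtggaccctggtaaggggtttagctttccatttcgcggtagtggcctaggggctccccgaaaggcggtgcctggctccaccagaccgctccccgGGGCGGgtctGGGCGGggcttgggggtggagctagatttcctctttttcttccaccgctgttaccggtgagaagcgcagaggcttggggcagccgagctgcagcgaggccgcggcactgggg
Vegfb: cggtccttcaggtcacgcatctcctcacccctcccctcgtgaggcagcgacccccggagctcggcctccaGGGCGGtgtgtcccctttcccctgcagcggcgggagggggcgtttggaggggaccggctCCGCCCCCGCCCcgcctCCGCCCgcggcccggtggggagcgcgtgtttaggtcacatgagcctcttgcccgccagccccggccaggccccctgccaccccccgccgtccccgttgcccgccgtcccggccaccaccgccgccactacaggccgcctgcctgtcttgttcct
Gdf15: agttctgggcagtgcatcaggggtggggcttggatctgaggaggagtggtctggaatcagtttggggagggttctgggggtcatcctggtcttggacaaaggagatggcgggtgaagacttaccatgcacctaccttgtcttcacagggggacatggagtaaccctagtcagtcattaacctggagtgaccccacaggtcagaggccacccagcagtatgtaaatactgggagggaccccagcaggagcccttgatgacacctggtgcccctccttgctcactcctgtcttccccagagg
The Vegfa window holds 2 GC boxes and is 62.0% G and C, the Vegfb window holds 4 and is 75.3% G and C, and the Gdf15 window holds none and is 57.0% G and C. A GC box lies in 35.7% of the 32851 promoters of the table, whose median share of G and C is 52.7%. In the same windows, on both strands, the hypoxia element (ACGTG or GCGTG, in 43.8% of all promoters) occurred at 2 places in Vegfb and in neither of the other windows shown. The windows of the second annotated starts of Vegfa and Gdf15 did hold it, at 2 places each, which overlap in Gdf15. The interferon response core (GAAA, 2 unspecified bases and GAAA again, in 3.44% of all promoters) occurred once in Vegfa, its first base 142 before the start. A TATA box (TATAAA, in 13.6%), an AP-1 site (TGANTCA, in 7.81%), a C/EBP-ATF site (TGATGNAA, in 3.97%) and a CRE core (TGACG, in 20.8%) were in none of the 3. The NF-kB letters (GGG, 5 unspecified bases and CC, in 50.8%) occurred once in Vegfa, at 3 places in Vegfb and at 5 in Gdf15, some of them overlapping each other or a GC box. A SMAD element (CAGAC, in 49.6%) occurred at 2 places in Vegfa and once in Gdf15, and an EGR1 site (GCG, 1 unspecified base and GGGCG, in 5.55%) once in Vegfb, overlapping GC boxes. These matches are letters in a window and show no binding. The table matched 7 of the 10 members, with a second start for Vegfa, Pdgfa and Gdf15, and a gene total does not say which start was used. Hbegf, Pdgfb and Thbs1 had no entry.

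**Figure D1:**
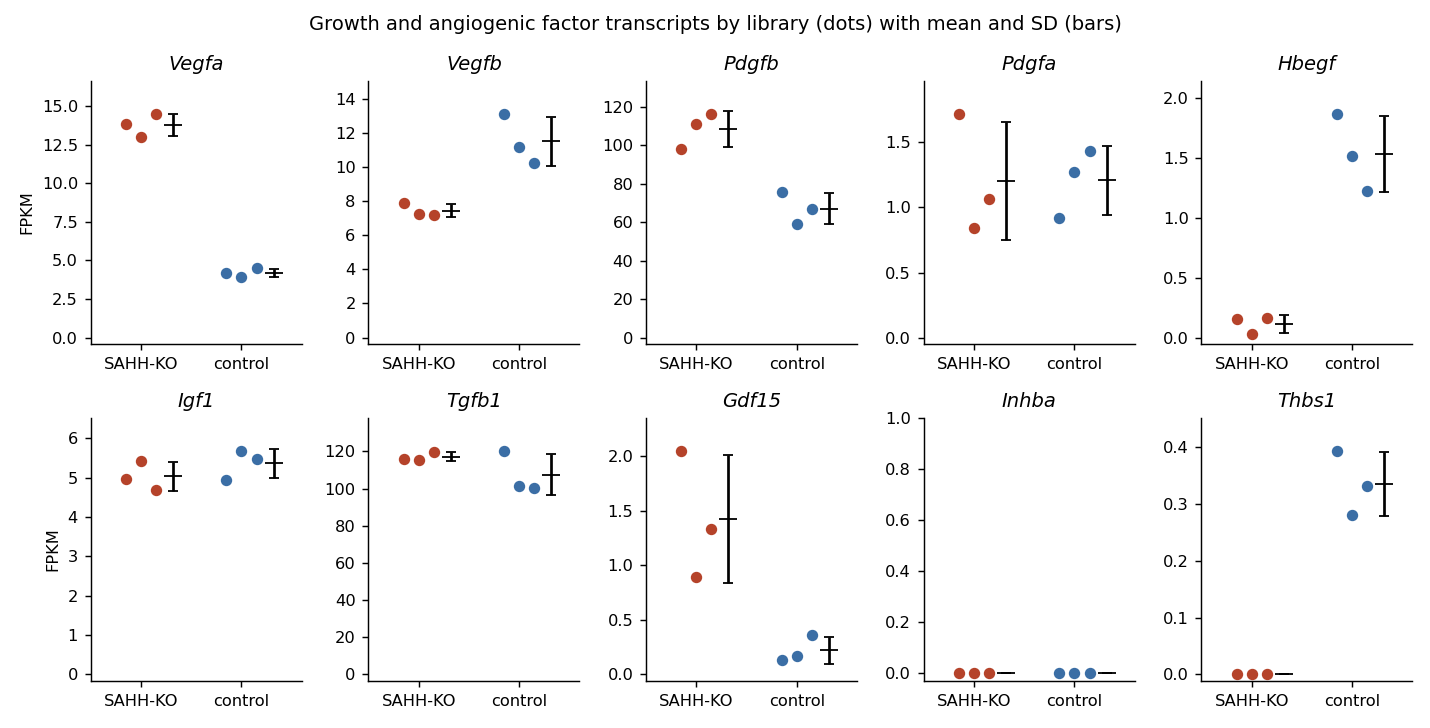
FPKM (vertical axis, from 0, a separate scale for each gene) of the 10 members in each of the 3 SAHH-KO and 3 control libraries (dots), with mean and SD (bars). Vegfa, Pdgfb and Gdf15 sit higher in every SAHH-KO library, Vegfb, Hbegf and Thbs1 lower, the groups overlap for Pdgfa, Igf1 and Tgfb1, and Inhba is at 0 throughout.

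Vegfa, the main inducer of vessel growth, showed the largest rise of the tested members. It stood at 13.8, 13.0 and 14.5 FPKM in SAHH-KO, against 4.18, 3.93 and 4.48 FPKM in control. The groups were far apart and each was tight, with means of 13.8 ± 0.727 FPKM in SAHH-KO and 4.20 ± 0.274 FPKM in control (SD, n = 3 each), a 3.28-fold difference. The log2 fold change was 1.51 (SE 0.0841, 95% interval 1.31 to 1.70, limma adjusted p = 3.88e-06), which placed Vegfa at rank 317 of the 10362 tested genes from the highest rise. Vegfa (ENSMUSG00000023951, protein-coding) occupies chr17:46016993-46032369 of GRCm38, the build used for all genes below, on the minus strand. Its annotated transcripts have up to 8 exons, and the gene total does not separate its splice forms.

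Vegfb, whose product binds VEGF receptor 1 but not receptor 2 and acts mainly in heart and fat, went the other way. It stood at 7.90, 7.25 and 7.21 FPKM in SAHH-KO, against 13.1, 11.2 and 10.2 FPKM in control. Every SAHH-KO library lay below every control library. The mean was 7.45 ± 0.391 FPKM in SAHH-KO and 11.5 ± 1.45 FPKM in control, 0.647 of the control mean (log2 fold change -0.56, SE 0.101, limma adjusted p = 0.00197). Vegfb (ENSMUSG00000024962) lies on chromosome 19, bases 6982473 to 6987651 on the minus strand.

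The order of the pair was thus reversed between the groups. Within a library, Vegfa was at 1.75, 1.79 and 2.01 times Vegfb in SAHH-KO, against 0.319, 0.350 and 0.437 times in control. On the log2 scale the ratio averaged 0.89 ± 0.104 in SAHH-KO and -1.45 ± 0.233 in control (SD, n = 3 each), a difference of 2.34. The exact two-sided permutation test gave p = 0.1, the smallest that 3 against 3 libraries allow, or 0.2 adjusted over the 2 pairs of ligands compared. The ratio comes from 2 genes of one library, so library scaling does not enter it.

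Of the related ligands and receptors of the VEGF and PDGF systems, 4 of 12 were tested, 2 were higher and none was lower in SAHH-KO. Their median log2 fold change was 0.26, against -0.01 over all tested genes. Flt1, which encodes VEGF receptor 1, the receptor that both ligands share, averaged 14.7 ± 1.78 FPKM in SAHH-KO and 6.43 ± 0.526 FPKM in control, a 2.28-fold rise (log2 fold change 1.07, limma adjusted p = 8.34e-05). Nrp2, a co-receptor named after its values were seen, rose 1.34-fold (adjusted p = 0.00544). Nrp1, another co-receptor, averaged 1.30 ± 0.106 FPKM in SAHH-KO and 1.55 ± 0.140 FPKM in control and did not pass (adjusted p = 0.241). Kdr, which encodes VEGF receptor 2 of endothelium, had 66 reads over the SAHH-KO libraries and 37 over the control libraries and was not tested. By library these were 41, 18 and 7 in SAHH-KO and 14, 8 and 15 in control, so the groups overlapped. The most abundant VEGF ligand was Vegfc, a factor of lymphatic vessels looked at after the values were seen, at 42.1 ± 1.12 FPKM in SAHH-KO and 39.5 ± 3.73 FPKM in control (adjusted p = 0.388).

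Vegfa is a classical target of the hypoxia-inducible factors. Of 15 tested genes of that pathway, 5 were higher and 3 lower in SAHH-KO (median log2 fold change 0.10). That is 53.3% called, the same share as over all tested genes. With TPM scaling 3 were higher and 4 lower (median -0.04, against -0.16 over all tested genes). Hif1a, the oxygen-sensitive subunit, averaged 24.1 ± 1.04 FPKM in SAHH-KO and 24.96 ± 4.94 FPKM in control (adjusted p = 0.838). Slc2a1, the glucose transporter gene that the factor drives, averaged 131 ± 4.10 FPKM in SAHH-KO and 135 ± 16.1 FPKM in control (adjusted p = 0.789). Both were named after their values were seen. Ddit4, which responds to hypoxia and also to stress, rose 3.74-fold, to 16.4 ± 1.36 FPKM in SAHH-KO against 4.37 ± 0.681 FPKM in control (adjusted p = 9.53e-06). The other called genes were Arnt, Egln2, Bnip3 and Pfkfb4, higher, and Egln1, Pfkfb3 and Pdk1, lower. The part of this pathway in the rise of Vegfa was not tested.

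Pdgfb, the B chain of platelet-derived growth factor and the second most abundant member, rose. It stood at 98.0, 111 and 116 FPKM in SAHH-KO, against 75.4, 59.0 and 66.8 FPKM in control. All SAHH-KO libraries were above all control libraries. The means were 108 ± 9.30 FPKM in SAHH-KO and 67.1 ± 8.22 FPKM in control, a 1.62-fold difference (log2 fold change 0.69, SE 0.108, limma adjusted p = 0.000961). Pdgfb (ENSMUSG00000000489) lies on chromosome 15, bases 79995874 to 80014977 on the minus strand.

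Pdgfa, the A chain, was low and did not differ beyond its spread. It stood at 1.72, 0.843 and 1.06 FPKM in SAHH-KO, against 0.919, 1.27 and 1.43 FPKM in control. The groups overlapped throughout, with means of 1.21 ± 0.454 FPKM in SAHH-KO and 1.21 ± 0.264 FPKM in control. The log2 fold change was -0.01, and its 95% interval ran from -0.39 to 0.36 (limma adjusted p = 0.954). Its count carries a limit, since 26.1% of its exon bases lie opposite exons of 6330403L08Rik, a gene on the other strand, and no source used here says whether counting was by strand. That gene had 110 reads over the SAHH-KO libraries and 104 over the control libraries, beside 180 and 193 for Pdgfa. Pdgfa (ENSMUSG00000025856) lies on chromosome 5, bases 138976014 to 138997370 on the minus strand.

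Pdgfa was a small fraction of Pdgfb in every library, 0.0175, 0.00758 and 0.00916 of it in SAHH-KO, against 0.0122, 0.0216 and 0.0215 in control. The log2 ratio averaged -6.55 ± 0.633 in SAHH-KO and -5.81 ± 0.474 in control (exact two-sided permutation p = 0.2, and 0.2 adjusted over the 2 pairs). Overlap between the groups came from SAHH-KO replicate 1 and control replicate 1. Receptors for these ligands were close to absent, with 2 reads of Pdgfra and 25 of Pdgfrb over all 6 libraries.

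**Figure D2:**
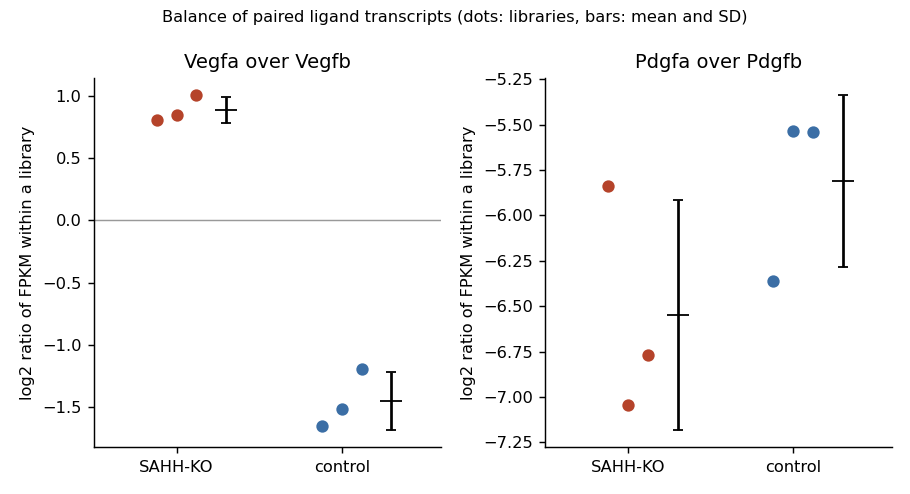
Log2 ratio of FPKM within a library (vertical axes, separate scales) for Vegfa over Vegfb and Pdgfa over Pdgfb in 3 SAHH-KO and 3 control libraries (dots), with mean and SD (bars). Vegfa over Vegfb is above 0 in every SAHH-KO library and below 0 in every control library, while the Pdgfa over Pdgfb ratios of the groups overlap.

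Hbegf, the heparin-binding ligand of the EGF receptor, fell to near the detection limit in SAHH-KO. It stood at 0.152, 0.0277 and 0.164 FPKM in SAHH-KO, against 1.86, 1.52 and 1.23 FPKM in control. These are 6, 1 and 6 reads in the SAHH-KO libraries, against 74, 59 and 52 in the control libraries. Means were 0.115 ± 0.0756 FPKM in SAHH-KO and 1.53 ± 0.319 FPKM in control, which makes SAHH-KO 13.4-fold lower. On the log2(FPKM + 1) scale the change was -1.18 (SE 0.128, limma adjusted p = 0.000130). That scale hides much of the fall of so low a gene, and limma voom on the recovered reads gave -3.82 (adjusted p = 5.16e-05). Hbegf passed the filter of both fits through its control libraries alone, so neither p-value is independent support. Over each group, the pooled reads give 0.116 FPKM in SAHH-KO (exact Poisson 95% interval 0.0617 to 0.198) and 1.53 FPKM in control (1.32 to 1.77), intervals that cover counting error only. Hbegf (ENSMUSG00000024486) lies on chromosome 18, bases 36504929 to 36515805 on the minus strand.

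No other ligand of the EGF family was tested, and Egfr, the receptor, had 0 reads in all 6 libraries. Of the 6 tested genes of the list, 2 were higher and 2 lower in SAHH-KO (median log2 fold change -0.03), with 1 higher and 3 lower under TPM or assigned-read scaling. Adam17, the main protease that sheds HB-EGF, averaged 45.8 ± 1.45 FPKM in SAHH-KO and 44.7 ± 0.490 FPKM in control (adjusted p = 0.712). Rhbdf2, which brings that protease to the cell surface, rose 1.97-fold, to 90.8 ± 2.94 FPKM in SAHH-KO against 46.2 ± 9.12 FPKM in control (adjusted p = 0.000393). Both genes were named after their values were seen.

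Tgfb1, which encodes the cytokine that dampens inflammation and drives matrix production, was the most abundant member and did not pass the test. It stood at 116, 116 and 119.9 FPKM in SAHH-KO, against 120.1, 101 and 100.5 FPKM in control. Control replicate 1 lay above every SAHH-KO library and the other two control libraries below them. The means were 117 ± 2.43 FPKM in SAHH-KO and 107 ± 11.1 FPKM in control (log2 fold change 0.13, 95% interval -0.07 to 0.33, limma adjusted p = 0.248). Without control replicate 1 the change was 0.21 and passed (adjusted p = 0.0247), and with TPM scaling it was -0.03 (adjusted p = 0.783). Tgfb1 (ENSMUSG00000002603) lies on chromosome 7, bases 25687002 to 25705077 on the plus strand.

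Among further ligands of the superfamily and genes that activate or restrain its ligands, 3 of 22 were tested, and none of the 3 was a ligand. Itgav, a chain of integrins that activate latent TGF-β1, rose 2.29-fold, to 19.3 ± 3.38 FPKM in SAHH-KO against 8.44 ± 1.05 FPKM in control (limma adjusted p = 0.000227). Itgb8, another integrin chain of the list, averaged 0.233 ± 0.0371 FPKM in SAHH-KO and 0.279 ± 0.105 FPKM in control. It was not tested and was named after its values were seen. Furin, the protease that cleaves the precursor, averaged 54.2 ± 6.26 FPKM in SAHH-KO and 45.5 ± 9.75 FPKM in control (adjusted p = 0.177). Nrros, which tethers the latent complex on myeloid cells, averaged 35.4 ± 0.438 FPKM in SAHH-KO and 36.2 ± 2.35 FPKM in control (adjusted p = 0.777). Both of these were named after their values were seen.

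Of 18 tested receptors and SMAD mediators of the superfamily, 8 rose and 2 fell in SAHH-KO (median log2 fold change 0.10). That is 55.6% called, near the 53.3% of all tested genes. The balance of directions rests on scaling, since 4 were higher and 7 lower with TPM, where 2006 of all 10362 tested genes were higher and 3894 lower. Tgfbr1 averaged 1.21 ± 0.218 FPKM in SAHH-KO and 1.11 ± 0.232 FPKM in control (adjusted p = 0.656). Tgfbr2 averaged 7.74 ± 0.443 FPKM in SAHH-KO and 8.82 ± 0.836 FPKM in control (adjusted p = 0.163, but 0.0251 with TPM scaling). The activin receptor gene Acvr2a averaged 1.90 ± 0.388 FPKM in SAHH-KO and 1.65 ± 0.205 FPKM in control (adjusted p = 0.435), and Acvr2b, at 0.620 ± 0.0621 FPKM in SAHH-KO and 0.730 ± 0.199 FPKM in control, was not tested.

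Inhba, the subunit of activin A, had 0 reads in all 6 libraries. Over a group, 3 reads would be worth 0.00994 FPKM in SAHH-KO and 0.00920 FPKM in control, which is the level a count of 0 allows. The ratio of Inhba to Tgfb1 could not be formed. Inhba (ENSMUSG00000041324) lies on chromosome 13, bases 16011851 to 16031621 on the plus strand.

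Gdf15, a stress-induced factor that curbs appetite through neurons of the hindbrain, was low in both groups and higher in SAHH-KO. It stood at 2.04, 0.887 and 1.33 FPKM in SAHH-KO, against 0.129, 0.165 and 0.362 FPKM in control, with 63, 25 and 38 reads in the SAHH-KO libraries and 4, 5 and 12 in the control libraries. No control library reached the lowest SAHH-KO library. The means were 1.42 ± 0.584 FPKM in SAHH-KO and 0.219 ± 0.126 FPKM in control, a 6.50-fold difference. Only 2 libraries reached 1 FPKM, so Gdf15 was not among the tested genes. Fitted with no filter, it had a log2 fold change of 0.97 (SE 0.190, limma adjusted p = 0.0160). With limma voom on genes with at least 10 reads in 3 libraries, an alternative chosen after seeing the data, it was 2.66 (adjusted p = 0.000370). Gdf15 met that read filter through its SAHH-KO libraries, and of the control libraries only replicate 3 (12 reads) reached 10 reads. The voom p-value is therefore no independent support. Gdf15 (ENSMUSG00000038508) lies on chromosome 8, bases 70629393 to 70632456 on the minus strand, with up to 3 exons in a transcript.

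Gdf15 is known as a target of p53 and of the ATF4 and CHOP stress factors. In the list of its receptor and such regulators, 9 of 10 tested genes were higher and none was lower in SAHH-KO (median log2 fold change 1.25), where 26.4% of all tested genes were higher, and Nfe2l2 was lower with TPM scaling. One of the 9, Klf4, a transcription factor, passed the filter through its SAHH-KO libraries alone. Trib3, a target of ATF4 and CHOP, averaged 51.8 ± 7.21 FPKM in SAHH-KO and 8.58 ± 0.646 FPKM in control. Chac1, which degrades glutathione, averaged 58.1 ± 0.892 FPKM in SAHH-KO and 16.4 ± 0.304 FPKM in control. Ddit3, the gene of CHOP, averaged 40.2 ± 5.62 FPKM in SAHH-KO and 9.07 ± 0.996 FPKM in control, from the larger of 2 table entries with that symbol. The p53 target Cdkn1a averaged 169 ± 5.49 FPKM in SAHH-KO and 43.9 ± 3.26 FPKM in control, and the limma adjusted p-values of these 4 genes were at most 4.96e-06. Gfral, the receptor gene, had 0 reads in all 6 libraries. The list was chosen with earlier results of these data known, and the part of these stress regulators in the higher Gdf15 values was not tested.

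**Figure D3:**
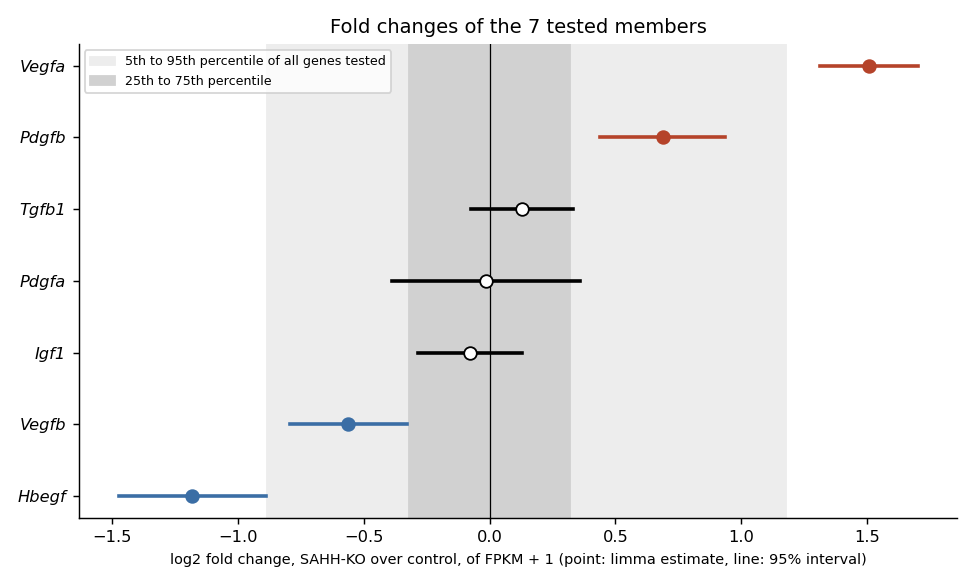
Log2 fold change of FPKM + 1, SAHH-KO over control (horizontal axis), of the 7 tested members (points, limma) with 95% intervals (lines), beside the 25th to 75th and 5th to 95th percentiles of all tested genes (shaded). Vegfa at 1.51 lies above and Hbegf at -1.18 below the outer band, and the intervals of Tgfb1, Pdgfa and Igf1 include 0.

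Igf1, an anabolic factor made by resident and repair-type macrophages, did not pass the test. It stood at 4.98, 5.43 and 4.69 FPKM in SAHH-KO, against 4.94, 5.67 and 5.47 FPKM in control. The groups overlapped, with means of 5.03 ± 0.374 FPKM in SAHH-KO and 5.36 ± 0.377 FPKM in control. The log2 fold change was -0.08, with a 95% interval from -0.28 to 0.13 (limma adjusted p = 0.504). Igf1 (ENSMUSG00000020053) lies on chromosome 10, bases 87858265 to 87937042 on the plus strand. None of the 3 tested genes of the IGF axis passed either. Igf1r had 3 reads over all 6 libraries, and Igf2r, which clears IGF-2 and was named after its values were seen, averaged 50.4 ± 1.31 FPKM in SAHH-KO and 50.3 ± 9.30 FPKM in control (adjusted p = 0.916).

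Thbs1, the gene of thrombospondin-1, had no read in SAHH-KO. The SAHH-KO libraries held 0, 0 and 0 reads, against 40, 28 and 36 in control, which is 0.393, 0.281 and 0.332 FPKM. With a floor of 3 reads set for the SAHH-KO group, SAHH-KO was 32.1-fold lower. That figure leaves out counting error in control, so it is not a lower bound. The exact Poisson intervals of the pooled reads, which cover counting error only, reached up to 0.0129 FPKM in SAHH-KO and down to 0.274 FPKM in control. The level was under 1 FPKM everywhere, so Thbs1 was not among the tested genes, and without a filter its log2 fold change came to -0.42 (SE 0.0376, limma adjusted p = 0.00110). Limma voom on genes with at least 10 reads in 3 libraries, an alternative chosen after seeing the data, gave -6.01 (adjusted p = 1.45e-07). Thbs1 met that read filter through its control libraries alone, so this p-value is no independent support. With no read in SAHH-KO, the size of a fitted change also depends on the pseudocount. Overlap with the antisense gene Gm29233 touches 3.43% of its exon bases. Thbs1 (ENSMUSG00000040152) lies on chromosome 2, bases 118111876 to 118127133 on the plus strand, with up to 22 exons in a transcript.

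Platelets store thrombospondin-1, PDGF and TGF-β1. The 8 platelet and megakaryocyte markers summed to 0.394 to 0.644 FPKM in SAHH-KO libraries and 1.26 to 1.82 FPKM in control libraries, Gp1bb and Ppbp had 0 reads, and 1 of the 8, Pf4, which macrophages also express, averaged at least 1 FPKM in control. The 10 fibroblast and mesothelial markers summed to 3.99 to 5.19 FPKM in SAHH-KO and 94.6 to 110.4 FPKM in control, nearly all of it from Pdpn. Col1a1, Col1a2 and Col3a1 had 3, 2 and 2 reads, all in SAHH-KO. Dcn, Lum and Krt8 had 7, 2 and 1 reads, all in control, while Msln, Upk3b and Krt19 had 0 reads. The 8 neutrophil markers summed to 0.503 to 0.820 FPKM in SAHH-KO and 7.71 to 8.78 FPKM in control, where S100a8 and Mmp8 made up most of the sum, while Camp did so over the SAHH-KO libraries. S100a9, Ly6g, Mpo and Ltf had 0 reads. The part of these cell types in the lower Thbs1 and Hbegf values was not tested, and in bulk RNA fewer cells of a type cannot be told apart from less RNA per cell.

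The 2 receptors through which thrombospondin-1 restrains endothelium and signals to macrophages moved apart. Cd36, also a scavenger receptor for oxidised lipoprotein, averaged 35.6 ± 1.91 FPKM in SAHH-KO and 88.1 ± 13.6 FPKM in control (log2 fold change -1.28, limma adjusted p = 4.60e-05). Cd47, the receptor that also marks cells against engulfment, averaged 40.1 ± 3.12 FPKM in SAHH-KO and 13.9 ± 1.38 FPKM in control (log2 fold change 1.46, adjusted p = 9.40e-06). In the whole list 1 of 4 tested genes was higher and 2 were lower, the other lower one being Calr, a chaperone that binds thrombospondin-1 at the cell surface, named after its values were seen.

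The order of levels differed between the groups in the places below Tgfb1 and Pdgfb. In SAHH-KO it ran Tgfb1, Pdgfb, Vegfa, Vegfb, Igf1, Gdf15, Pdgfa, Hbegf, and then Inhba and Thbs1 at 0. In control it ran Tgfb1, Pdgfb, Vegfb, Igf1, Vegfa, Hbegf, Pdgfa, Thbs1, Gdf15, Inhba. Single libraries overlapped between the neighbours Tgfb1 and Pdgfb and between Gdf15 and Pdgfa in SAHH-KO, and between Hbegf and Pdgfa and between Thbs1 and Gdf15 in control, so those places in the order are not distinct.

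Other secreted growth and angiogenic factors also moved in both directions. Of 8 tested of 28, 3 were higher and 2 lower in SAHH-KO (median log2 fold change 0.06, or -0.07 with TPM scaling). Sema4d, a semaphorin that promotes angiogenesis, averaged 56.0 ± 8.93 FPKM in SAHH-KO and 17.4 ± 2.99 FPKM in control (adjusted p = 4.12e-05). Grn, the gene of progranulin, averaged 588 ± 61.1 FPKM in SAHH-KO and 286 ± 39.7 FPKM in control (adjusted p = 0.000155). Spp1, the gene of osteopontin, named after its values were seen, averaged 6726 ± 296 FPKM in SAHH-KO and 3470 ± 413 FPKM in control (adjusted p = 9.06e-05). Of the anti-angiogenic list 2 of 10 were tested. Col18a1, from which endostatin is cut, averaged 3.69 ± 1.17 FPKM in SAHH-KO and 0.593 ± 0.252 FPKM in control (adjusted p = 0.000250), and it passed the filter through its SAHH-KO libraries alone. Adamts1, a protease that binds VEGF-A and was named after its values were seen, averaged 2.84 ± 0.260 FPKM in SAHH-KO and 6.62 ± 0.394 FPKM in control (adjusted p = 5.55e-05).

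**Figure D4:**
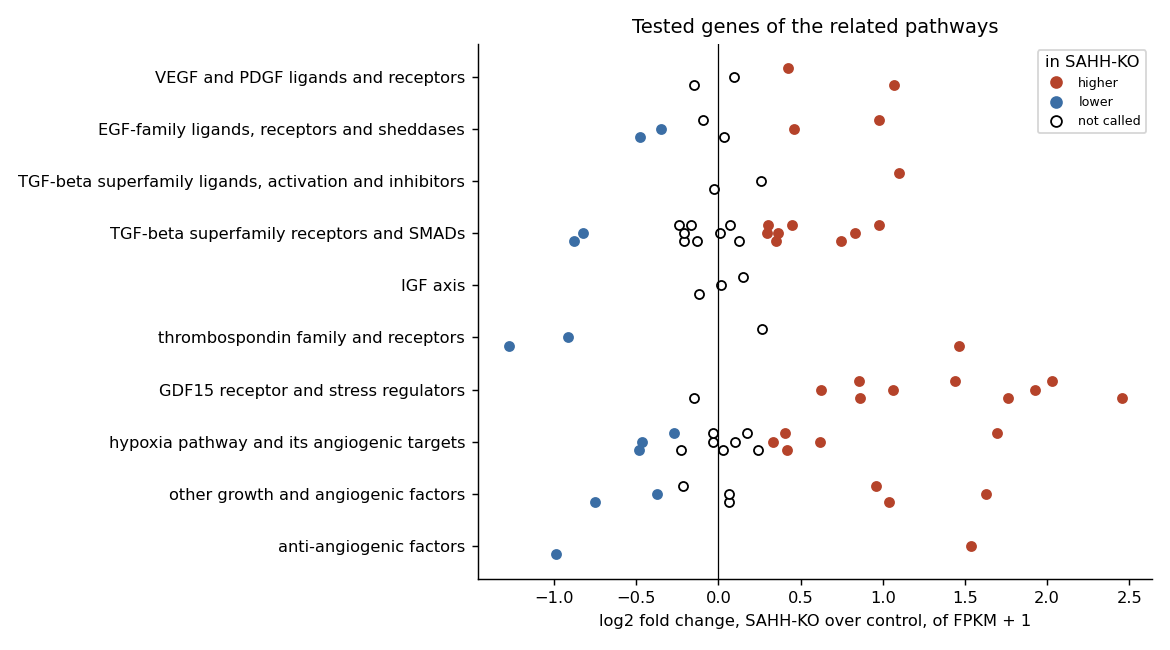
Log2 fold change of FPKM + 1, SAHH-KO over control (horizontal axis), of each tested gene (points) in the 10 related lists (rows), filled where limma called it higher or lower. All lists but the IGF axis hold called genes, and in the list of stress regulators 9 of 10 points are called higher.

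Across the 6 libraries, the gene with the pattern most like Vegfa was Parp3, an ADP-ribosyltransferase of DNA repair. Its centred log2 levels differed from those of Vegfa by a root mean square of 0.0428. For Hbegf the nearest were Kcnab2, a potassium channel subunit, at 0.0725, and Tmem144 at 0.102. They were sought among 6000 protein-coding genes, and in 6 libraries of 2 groups any gene with a like fold change comes out close.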

How the data were processed

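RNA-seq libraries of stimulated mouse macrophages, 3 SAHH-KO and 3 control, were analysed from 1 table of FPKM values deposited by the authors. Per the labels each library came from 1.3 µg of total RNA. FastQC, Trim Galore, STAR, featureCounts and the build GRCm38 (mm10) are named, per the submitters' processing notes. Versions and strand settings are not given in the sources used here. FPKM times gene length came out as whole multiples of 1 step per library (100% of values within 0.01 of a read), which gave the reads. Limma voom on these reads called 5750 genes. The library sizes behind the FPKM were 0.937 to 0.960 times the assigned reads in SAHH-KO and 1.05 to 1.07 times in control. For a gene of 1 kb, 3 reads are worth 0.168 to 0.197 FPKM.

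The test was limma 3.58.1 (R 4.3.3, eBayes with trend) on log2(FPKM + 1), two-sided, for genes with at least 1 FPKM in at least 3 libraries (10362 genes). It was run on simulated data in which 200 genes were changed. Far more genes than that were called in the real data, so the simulation does not cover their setting. The alternatives were a pseudocount of 0.1, other filters, TPM and assigned-read scaling, limma voom on recovered reads, no trend, a replicate block and leaving out each library. No count table was given, so the count test planned for that case was not used. Ratios were compared by exact permutation (scipy 1.17.1).

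The members, the 10 lists of related genes (171 symbols, all matched, Figf as Vegfd) and the rule for naming genes were chosen with earlier results of these data known. The rule named all members, list genes past the threshold with at least 2-fold change and 2 FPKM (up to 4 a list and direction), the members' receptors, and the 2 genes nearest in pattern to each called member with at least 2-fold change, 1 of which is not reported here. Coordinates are those of the table, equal to GENCODE M21 for 9 of the 10 members. No pair of libraries held identical values. Equally numbered libraries deviated from their group means with correlations of 0.0955, 0.101 and -0.00556 across genes, so the numbers were not taken to pair them.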

Additional observations from a re-analysis of the deposited data

How the results depend on the processing

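The 4 calls of Vegfa, Vegfb, Hbegf and Pdgfb kept their direction and stayed past the threshold under each alternative that could test them, and Igf1 and Pdgfa stayed short of it. Fits that left out a library kept the genes filtered on all 6 libraries. Hbegf reached 1 FPKM in its control libraries alone and would have failed the filter without any of them. Its results in those fits are therefore no independent support. The mean filter of 5 FPKM left Hbegf and Pdgfa untested, so 3 members were called there. The log2 fold change of Vegfa ranged from 1.37 to 1.71, of Vegfb from -0.76 to -0.47, of Pdgfb from 0.53 to 0.77 and of Hbegf from -3.82 to -1.09, the widest range, since a pseudocount of 0.1 gave -2.98 and TPM scaling -2.12 for so low a gene. Tgfb1 ranged from 0.084 to 0.21 when each library was left out and was called only without control replicate 1. TPM and assigned-read scaling shifted the overall median (log2) to -0.16 and -0.14, put Tgfb1 at -0.03 with both, and changed the split of all calls to 2006 higher and 3894 lower with TPM and 2033 and 3905 with assigned reads, against 2736 and 2782. With the replicate block 5490 genes were called, against 5518, and no call of a member changed, Tgfb1 having an adjusted p of 0.263. Voom with 10 reads in 3 libraries, chosen after seeing the data, called 6406 genes. Gdf15 rests on 147 reads and Thbs1 on 104, so their sizes of change are loosely held. Leaving out a library moved the log2 difference of Vegfa over Vegfb within 2.24 to 2.47 and that of Pdgfa over Pdgfb within -1.09 to -0.49.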
